A study of Mus musculus with 6 samples.

Results

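Insulin, insulin-like growth factor (IGF) and leptin signalling was followed here through 9 genes: the insulin receptor substrate genes Irs1, Irs2 and Irs4, the receptor genes Insr, Igf1r and Lepr, the ligand gene Igf1 and the IGF-binding protein genes Igfbp2 and Igfbp5. They are 9 of the 18193 genes that the arrays name singly, and 23 probe sets read them. The genes were chosen by the level of Irs4, which had been noted as raised in the IP arrays of the contrast described below, with 8 genes of the same pathways around it. The members' values in that contrast are therefore a description, given without p-values.

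The 6 Affymetrix mouse arrays compared 3 IP samples with 3 unbound samples. IP is RNA pulled down on tagged ribosomes by translating ribosome affinity purification (TRAP), and unbound is the RNA that stayed in the same lysate, which the labels call total tissue RNA. Both groups come from the same BAC (bacterial artificial chromosome) transgenic mice, line slc6a4 JD60, kept on a mixed FVB and c57/bl6j background, so that serotonin neurons, the cells that use the serotonin transporter gene Slc6a4, were targeted. They were adults of 6 to 12 weeks, males and females, and each sample pooled 5 mice. Midbrain and brainstem were dissected without the cerebellum. The groups differ in cell type and in ribosome binding at once, and these cannot be told apart. Within a bulk sample, fewer cells of a type and less RNA per cell cannot be told apart either.

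Insulin and IGF-1 bind receptor tyrosine kinases, which phosphorylate substrate proteins of the IRS family. The substrates then recruit PI3-kinase, with AKT, mTOR and FOXO factors downstream, and adaptors that lead to RAS and MAP kinases. Leptin acts through its own receptor, the kinase JAK2 and the factor STAT3. IGF-binding proteins are secreted and hold IGFs outside cells. In the brain these hormones report on energy stores and act on growth and feeding, and Irs4 is the family member known for a narrow expression that includes the hypothalamus.

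Each array gave 45101 log2 values, scaled between groups on the biotin hybridisation controls. Pearson's r over probe sets was at least 0.994 within a group and at most 0.932 between groups. A log2 value of 5 served as the detection limit, and genes that fewer than 3 of the 6 arrays placed at or above it were left out, so that 10581 remained. A gene was called where limma's adjusted p was under 0.05 and the change at least 2-fold. The 3 IP values were identical for 15.7% of singly named probe sets with a group mean of 5 or more, against 0.453% in unbound RNA, so the IP spread of such genes understates the error. The number of arrays limits the precision throughout.

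Markers placed the labelled cells as follows. All 7 measured serotonergic markers were higher in IP, beside 10.4% of all genes tested. Slc6a4 had a mean of 14.20 ± 0.12 (SD, n = 3) in IP against 9.05 ± 0.07 (SD, n = 3) unbound, and Tph2, the serotonin-synthesis enzyme gene, read 15.16 against 9.35. Lmx1b was below the limit on every unbound array and passed the filter only through IP, which fixed its direction. Fev, a serotonergic transcription factor gene, was not analysed here. Of 6 pan-neuronal markers, Tubb3 (1.47) was higher and none lower, with Snap25 at -0.57 and Syt1 at 0.98, neither called, though Syt1 was called without IP replicate 1 (1.06) or unbound replicate 3 (1.01), and by both of its further probe sets, whose unbound means of 4.81 and 4.56 were below the limit. Snap25 turned positive under both median centrings, and Tubb3 and Syt1 turned negative with the poly-A spike controls described below.

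Of the 9 members, 8 were tested. Only Irs4 was higher in IP, by 16.1-fold, and the other 7 were lower, by between 2.51-fold for Irs1 and at least 13.9-fold for Igf1. For comparison, 10.4% of all genes tested were called higher and 41.1% lower. The IP and unbound arrays of all 8 members did not overlap, where the IP arrays lay above for 23.9% and below for 59.1% of all genes. Irs2 and Igf1 were below the limit on every IP array, so they entered the test only through unbound RNA, which fixed their direction. Lepr was below the limit on every array and was not tested.

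**Figure D1:**
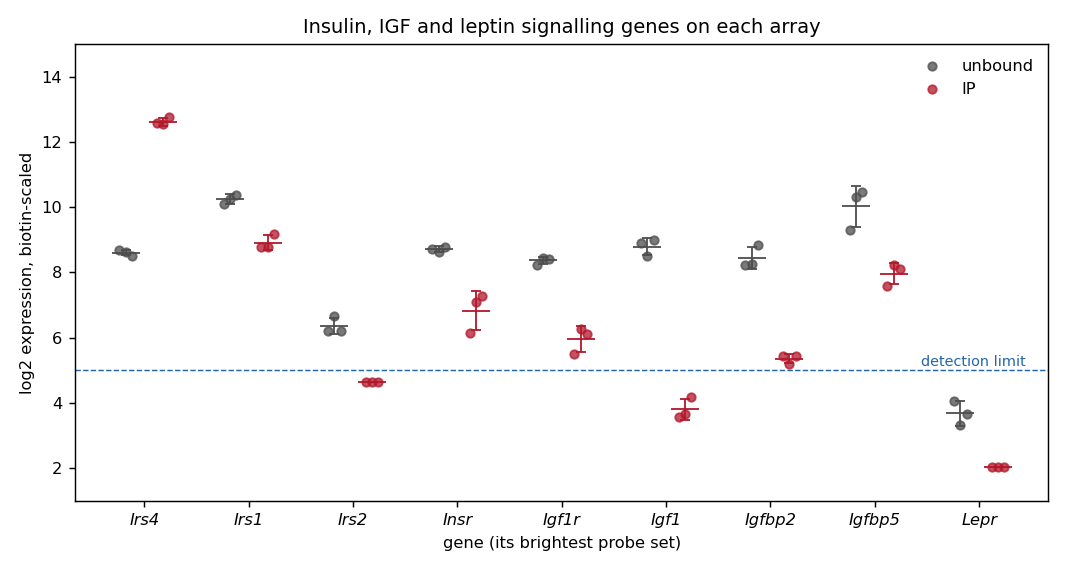
Log2 expression of the brightest probe set of each of the 9 genes on the 3 unbound (grey) and 3 IP (red) arrays. Points are arrays, long bars the mean, whiskers 1 SD, and the dashed line is the detection limit of 5. Irs4 is the gene whose IP points lie above its unbound points.

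Irs4 encodes a substrate that docks signalling proteins to activated insulin and IGF-1 receptors. Its probe set 1441429_at read 12.57, 12.53 and 12.75 in IP replicates 1, 2 and 3 and 8.68, 8.62 and 8.52 in unbound replicates 1, 2 and 3. The lowest IP array thus stood above the highest unbound array, and the arrays of each group lay close together. The log2 difference was 4.01 ± 0.10 (SE), and taken within replicate numbers it was 3.88, 3.92 and 4.24. With each array scaled on its own biotin controls the difference was the same and its SE was 0.24. Irs4 ranked 44th from the highest of the 10581 genes tested, and 12th of the 8856 genes whose mean reached the limit in both fractions. Of the 7 measured serotonergic markers only the factor gene Gata3 had a smaller difference, of 2.64, and Gata3 lost its call with the poly-A controls (0.28). The other markers lay above Irs4, from the 4.14 of Ddc, the enzyme gene that completes serotonin synthesis, to the 5.81 of Tph2. Slc6a4 stood at 5.15.

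The second Irs4 probe set, 1422248_at, did not show the difference of 4.01. It read 2.71, 2.71 and 3.09 in IP and 2.17 on all 3 unbound arrays, the last being the floor of that group. All 6 values are below the limit, and no fold is given. The Irs4 difference therefore rests on 1 probe set, and the mean of both gave 2.34.

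By the distance between the 6 values, each set centred on its own mean, the genes most like Irs4 over the 6 arrays were Gm12371 (distance 0.17), Riiad1 (0.19), Cpa3 (0.25), Chst5 (0.29) and Guca1a (0.29). All 5 passed the filter only through IP, which fixed their direction. Unlike Irs4, they had unbound means below the limit, from 4.63 for Gm12371 to 2.17 for Cpa3 and Guca1a. Their changes are therefore bounds: Gm12371 was at least 12.1-fold higher in IP, Riiad1 at least 4.02-fold, Chst5 at least 2.41-fold, Cpa3 at least 2.12-fold and Guca1a at least 2.02-fold. The distances thus rest in part on values below the limit, and how large these differences are beyond the bounds was not measured.

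Irs1 and Irs2 encode the broadly used substrates. Irs1 read 8.78, 8.78 and 9.19 in IP against 10.09, 10.26 and 10.38 in unbound RNA. It was measured on all 6 arrays, the groups did not overlap, and its difference of -1.33 ± 0.15 (SE) was the smallest among the members measured in both fractions. IP replicates 1 and 2 carried the same deposited value. Irs2, read by 1443969_at alone, was 4.65 on all 3 IP arrays and 6.22, 6.65 and 6.21 in unbound RNA. Its IP arrays were below the limit, which makes it at least 2.57-fold lower. The family thus fell on both sides of 0: the difference of Irs4 lay 5.34 log2 above that of Irs1, with a combined SE of 0.18. That SE takes the genes as independent, although the same 6 arrays read them.

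Since 1 of the 3 substrate genes stood opposite the others, the 250 bases upstream of each gene's start are set side by side. They are RefSeq sequences of GRCm38.p6, 5′ to 3′ on the gene's strand, which is the minus strand for all 3. Irs4 lies at chrX:141725218-141725467, Irs1 at chr1:82291440-82291689 and Irs2 at chr8:11008930-11009179. Capitals mark CACGTG, the E-box palindrome.
Irs4: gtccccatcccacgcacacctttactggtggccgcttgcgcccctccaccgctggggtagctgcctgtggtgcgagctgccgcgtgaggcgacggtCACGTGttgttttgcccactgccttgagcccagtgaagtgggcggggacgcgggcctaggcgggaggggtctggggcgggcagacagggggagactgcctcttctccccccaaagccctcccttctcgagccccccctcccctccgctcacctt
Irs1: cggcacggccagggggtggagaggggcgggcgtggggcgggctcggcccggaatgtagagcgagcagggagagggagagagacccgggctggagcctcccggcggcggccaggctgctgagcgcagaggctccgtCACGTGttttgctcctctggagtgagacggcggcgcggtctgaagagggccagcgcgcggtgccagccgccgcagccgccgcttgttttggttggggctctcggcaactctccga
Irs2: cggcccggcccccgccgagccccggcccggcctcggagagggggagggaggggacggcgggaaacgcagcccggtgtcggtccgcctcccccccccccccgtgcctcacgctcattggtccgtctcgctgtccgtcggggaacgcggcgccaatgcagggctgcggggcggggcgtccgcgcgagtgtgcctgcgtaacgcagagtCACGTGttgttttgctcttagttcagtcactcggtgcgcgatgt

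All 3 windows held 1 CACGTG, which 6.02% of the 32851 promoter windows of that length hold. The motif was picked after the Irs4 window had been read. The letters around it were shared too: gtCACGTGtt stood in all 3, and Irs4 and Irs2 shared the 17-letter run gtCACGTGttgttttgc, which no other of the 32851 windows holds on either strand (2 in all). It began 156 bases before the start in Irs4 and 46 before it in Irs2. Neither GATA (53.6% of windows) nor the forkhead core GTAAACA (3.17%) was found on either strand of any of the 3. GC content was 69.2% for Irs4, 72.4% for Irs1 and 72.8% for Irs2, with 17, 28 and 34 CG dinucleotides, against a median window of 52.4% and 6. The substrate gene that was higher in IP and those that were lower thus share these letters, and nothing about binding was measured.

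**Figure D2:**
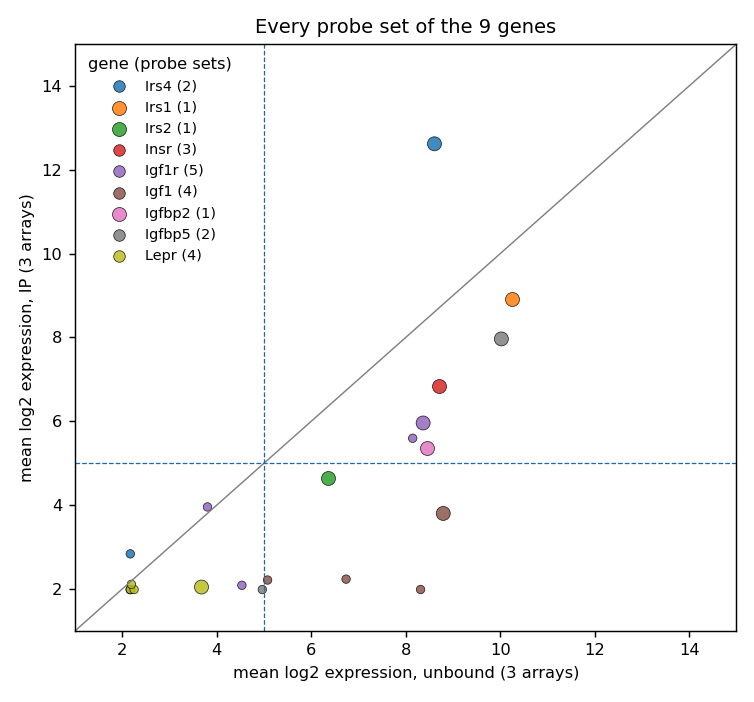
Mean log2 expression in IP against unbound RNA for all 23 probe sets, coloured by gene, with the brightest of each gene drawn large. The dashed lines are the detection limit of 5 and the diagonal marks equal values. A single probe set, of Irs4, lies far above the diagonal, and 10 probe sets lie below the limit on all 6 arrays.

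The receptor genes Insr and Igf1r encode the tyrosine kinases for insulin and IGF-1. For Insr, 1434446_at read 6.14, 7.08 and 7.27 in IP and 8.73, 8.63 and 8.78 in unbound RNA. IP replicate 1 was the low array, and the IP SD of 0.61 was the widest among the members. The difference was -1.89 ± 0.30 (SE), a 3.70-fold lower level in IP. The other 2 Insr probe sets sat at the floor of each group on every array.

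Igf1r had 5 probe sets. The brightest, 1452982_at, read 5.51, 6.27 and 6.10 in IP and 8.24, 8.46 and 8.41 in unbound RNA, 5.31-fold lower. A second, 1428967_at, gave much the same difference, -2.55 against -2.41. The other 3 were below the limit on every array, and among them 1452108_at had a difference of 0.15.

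The leptin receptor gene Lepr had 4 probe sets and none reached the limit. Its brightest, 1456156_at, read 4.05, 3.31 and 3.67 in unbound RNA and 2.04 on all 3 IP arrays. No fold is given, since both groups are below the limit. Leprot, the gene next to Lepr in the RefSeq order, encodes a protein that regulates receptor trafficking. It was measured in both fractions, at 9.81 in IP and 10.73 in unbound RNA, and was not called (log2 difference -0.92 ± 0.22 SE, limma adjusted p = 0.00939). Of its other probe sets, a dim one was called lower, at 5.14 against 6.15 (-1.01), and one at 8.04 against 8.70 was not (-0.66). By the brightest probe set it was called lower without IP replicate 1 (-1.02) or unbound replicate 2 (-1.16), and its sign turned with median centring on all probe sets.

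Igf1, the secreted ligand gene, had the most negative log2 difference among the tested members. Taken as a bound, its fall exceeded that of every member measured in both fractions. Irs2, also known only as a bound, cannot be ranked against it. The brightest Igf1 probe set, 1437401_at, read 3.56, 3.67 and 4.17 in IP against 8.91, 8.49 and 8.98 in unbound RNA. No IP array reached the limit with any of the 4 Igf1 probe sets, while 1434413_at read 8.08, 8.31 and 8.56 in unbound RNA. As bounds, Igf1 was at least 13.9-fold lower in IP by 1437401_at, at least 9.94-fold by 1434413_at and at least 3.33-fold by 1419519_at. In Igf1 all probe sets thus pointed the same way.

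Igfbp2 and Igfbp5 are next to each other in the RefSeq gene order. Igfbp2 read 5.43, 5.20 and 5.43 in IP, just above the limit, and 8.24, 8.25 and 8.85 in unbound RNA. That is 8.53-fold lower, the most among the members measured in both fractions. Igfbp5, by 1452114_s_at, read 7.58, 8.21 and 8.09 in IP and 9.30, 10.30 and 10.47 in unbound RNA. It was 4.17-fold lower, and unbound replicate 1 was its low unbound array. The second Igfbp5 probe set was at the floor on all IP arrays and reached the limit on 1 unbound array.

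In order of the log2 difference the 6 members measured in both fractions ran from Igfbp2 (-3.09) through Igf1r (-2.41), Igfbp5 (-2.06), Insr (-1.89) and Irs1 (-1.33) to Irs4 (4.01). The steps from Igf1r to Igfbp5 (0.35) and Igfbp5 to Insr (0.17) were smaller than their combined SEs of 0.40 and 0.46. By that measure these neighbours are not separated. Combined SEs take the genes as independent, although the same 6 arrays read them. The step from Insr to Irs1 (0.56) was 1.68 times its combined SE of 0.33. Irs2 and Igf1, known only as bounds, have no exact place in that order. The median difference of all genes tested was -0.65, and 7 of the 8 members lay below it. Relative to that median, Irs1 stood at -0.68 and Irs4 at 4.66.

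**Figure D3:**
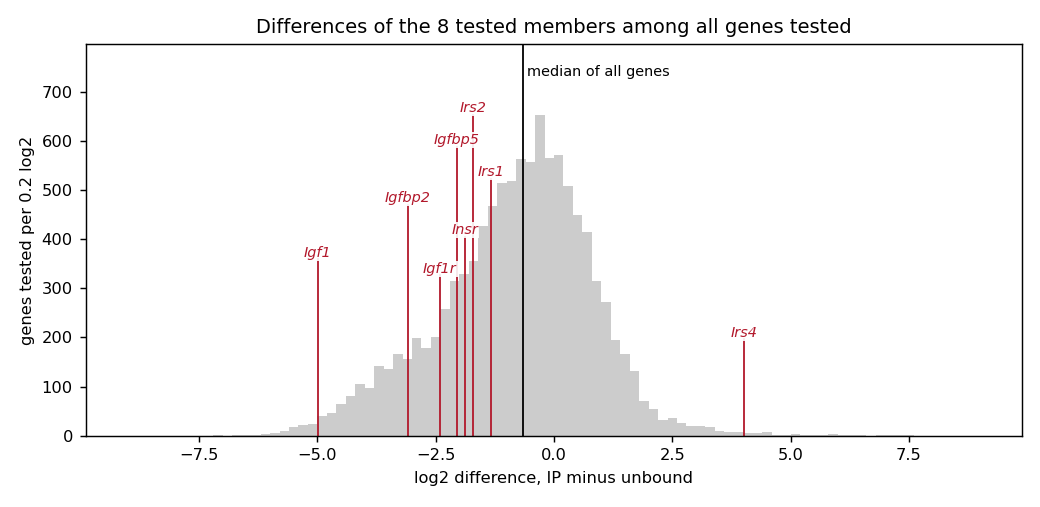
Histogram of the log2 difference, IP minus unbound, over the 10581 genes tested, with the 8 tested members as red lines whose heights carry no meaning. The black line is the median of all genes, -0.65. Irs4, at 4.01, lies in the sparse upper tail and the other members lie left of the median. The lines of Irs2 and Igf1 use IP values below the limit, so their places are not exact.

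How IP levels compare with unbound levels depends on the scaling, because the authors normalised each group by itself. None of the 8 members changed sign under any of the 6 other scalings. Irs4 ranged from 1.65 with the poly-A spike controls to 5.03 with median centring on all probe sets, and stayed called throughout. With the poly-A controls nearly every gene was lower (48 called higher and 9768 lower). Irs1 (-0.31 to -0.83) and Irs2 (-0.36 to -0.91) lost the 2-fold call under both median centrings and quantile normalisation, and Insr (-0.86) lost it with the median over all probe sets. The values of Irs2 are again taken against IP arrays below the limit. The median of all genes moved over the same scalings from -3.06 to 0.44. Relative to it, Irs4 stayed between 4.31 and 4.71.

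**Figure D4:**
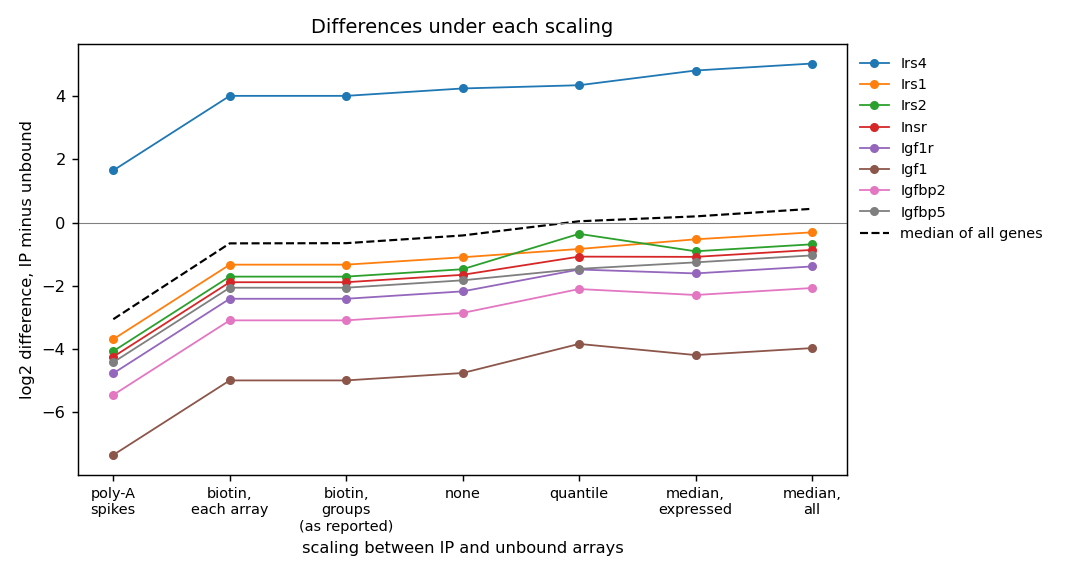
Log2 difference, IP minus unbound, of the 8 tested members under 7 scalings between the groups, with the median of all genes tested as a dashed line. Each line is a gene. Irs4 lies above 0 and above the median under each scaling, and the other 7 lie below both 0 and the median.

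Markers of other cells moved in the same direction as the 7 lower members. For comparison, 41.1% of all genes tested were called lower, and 33.2% of those measured in both fractions. All tested markers of astrocytes (9), oligodendrocytes (7), oligodendrocyte precursors (4), endothelial cells (4) and pericytes, smooth muscle and meninges (7) were lower, as were 8 of 8 of other neurons, 4 of 5 of microglia and macrophages and 4 of 5 of ependyma and choroid plexus. The exceptions were Aif1 (1.02) and Dynlrb2 (1.06), called higher in IP and close to the 2-fold limit. Aif1 was below the limit on every unbound array and passed the filter only through IP, where it was at least 1.66-fold higher. Aif1 lost its call without IP replicate 3 (1.00) or unbound replicate 2 (0.99), and Dynlrb2 without unbound replicate 2 (0.92) or 3 (0.99), while Dynlrb2 turned negative with the poly-A controls. The log2 of the summed astrocyte markers lay between 11.32 and 11.54 in IP, against 14.19 to 14.75 in unbound RNA. It was 7.55 to 7.57 against 10.56 to 10.76 for microglia, 5.52 to 5.58 against 8.43 to 8.86 for endothelial cells, and 7.49 to 7.72 against 10.49 to 11.01 for pericytes, smooth muscle and meninges. It was 14.00 to 14.58 against 16.14 to 16.35 for oligodendrocytes, 5.81 against 9.91 to 10.06 for their precursors and 11.38 to 11.98 against 14.05 to 14.47 for other neurons. For ependyma and choroid plexus it was 13.63 to 14.13 against 15.30 to 15.72. All 7 endothelial and all 4 precursor markers were below the limit on every IP array, so their IP sums are made of values below the limit. So were 7 of the 9 of pericytes, smooth muscle and meninges, 4 of the 9 of astrocytes and 2 of the 7 of oligodendrocytes. The same held for 4 of the 10 of other neurons, 4 of the 7 of microglia and 4 of the 6 of ependyma and choroid plexus. Where such markers were tested, they entered only through unbound RNA, which fixed their direction. Mbp of oligodendrocytes (13.63) and Ttr of choroid plexus (13.79) were still bright in IP. The part of these cells in the lower values of Igf1, Igfbp2, Igfbp5, Insr, Igf1r, Irs1 and Irs2 was not tested.

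Other genes of the pathways came from 6 lists of 86 genes, of which 74 were named singly on the array and 54 were tested. Of these, 1 was higher in IP (1.85%) and 35 were lower (64.8%), beside 10.4% and 41.1% of all genes, with a median difference of -1.44 beside -0.65. For 11 of the 35 no IP array reached the limit, so the filter fixed their direction. Among the 43 measured in both fractions, 1 was higher and 24 lower (55.8%, beside 33.2% of the 8856 genes so measured). Most tested genes downstream of the receptors were thus also lower in IP, as the plot by list shows. The balance depends on the scaling. Centring on the median of expressed probe sets gave 6 higher (11.5%, beside 27.3% of all genes) and 17 lower (32.7%, beside 23.5%). Quantile normalisation gave 6 higher (11.1%, beside 23.9%) and 22 lower (40.7%, beside 23.5%). Centring on the median of all probe sets gave 8 higher (15.4%, beside 33.8%) and 16 lower (30.8%, beside 19.6%), and the poly-A controls gave 0 higher and 53 lower (98.1%, beside 94.9%).

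**Figure D5:**
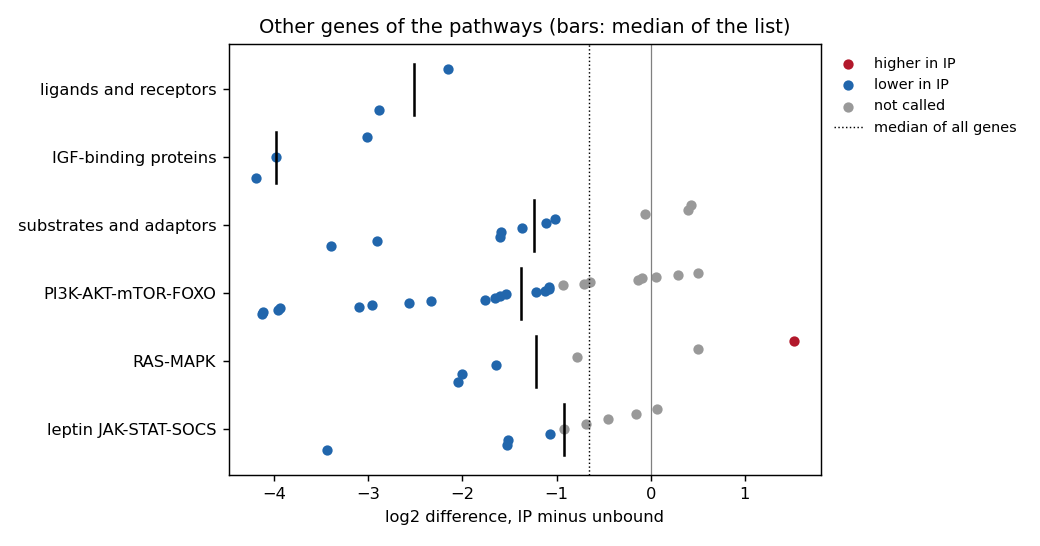
Log2 difference, IP minus unbound, of the 54 tested genes of 6 pathway lists, 1 point per gene, coloured by call. Black bars are list medians, and the dotted line is the median of all genes, -0.65. The single gene called higher, Map2k2, is on the RAS-MAPK list.

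The 2 tested ligand and receptor genes and the 3 tested binding-protein genes were lower, beside 41.1% of all genes tested. No IP array reached the limit for Igf2r, Igfbp3 and Igfbp7, so the filter fixed their direction. Only Igf2 and Igfbp4 were measured in both fractions, where 33.2% of all genes were lower. Igf2, which encodes a second IGF, read 6.48, 7.35 and 6.50 in IP against 9.06, 9.68 and 10.24 in unbound RNA and fell by 2.88 on the log2 scale (limma adjusted p = 0.000536). Igf2r, the receptor gene that clears IGF-2, was at least 3.05-fold lower. All 3 tested binding-protein genes fell, Igfbp4 by 3.01 (limma adjusted p = 0.000203), with Igfbp3 at least 4.76-fold and Igfbp7 at least 6.82-fold lower. Ins2, Insrr and Lep were below the filter.

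Among substrates and adaptors, 7 of 10 fell (70.0%, beside 41.1% of all genes) and none was higher. Of the 9 measured in both fractions 6 fell (66.7%, beside 33.2%). Gab1, which encodes a docking protein, read 6.84, 7.53 and 6.84 in IP against 10.27, 10.52 and 10.59 in unbound RNA, a fall of 3.39 (limma adjusted p = 2.3e-05). Cbl, a ubiquitin ligase gene, fell by 1.60, and Sh2b3, an adaptor gene, was at least 1.23-fold lower. Grb2 (-0.06), Sh2b1 (0.40) and Grb10 (0.43) were not called, and their direction turned with the scaling. Sh2b1 and Grb10 were called higher under both median centrings, Sh2b1 also after quantile normalisation, and lower with the poly-A controls, and Grb2 turned positive unscaled, under both median centrings, after quantile normalisation and without unbound replicate 2 (0.059). Irs3, the remaining substrate gene of the family, was below the filter.

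On the PI3K, AKT, mTOR and FOXO list 16 of 24 genes fell (66.7%, beside 41.1% of all genes) and none was higher. For 6 of the 16 no IP array reached the limit, which fixed their direction. Of the 18 measured in both fractions 10 fell (55.6%, beside 33.2%). Pik3r1, the regulatory subunit gene of PI3-kinase, fell by 3.96 (limma adjusted p = 1.14e-05), and Inppl1, a phosphatase gene of the pathway, was at least 4.85-fold lower. Pik3cd, a catalytic subunit gene, fell by 4.12, with 7.01 on all 3 IP arrays and 10.21, 12.66 and 10.55 in unbound RNA, where replicate 2 stood apart. Akt1 (-0.09), Rheb (0.50) and Gsk3a (0.29) were not called. Rheb and Gsk3a too were called higher under both median centrings and lower with the poly-A controls, and Akt1 turned positive unscaled, under both median centrings and after quantile normalisation.

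Of 6 RAS-MAPK genes, 3 fell (50%, beside 41.1% of all genes) and Map2k2 rose (16.7%, beside 10.4%), shares close to those of all genes. Map2k2 encodes the MAP kinase kinase MEK2, and read 10.62, 10.74 and 10.62 in IP against 8.91, 9.25 and 9.25 in unbound RNA (log2 difference 1.52 ± 0.12 SE, limma adjusted p = 5.44e-05), while its second probe set gave 0.83 and was not called. It turned to -0.84 with the poly-A controls. Nras fell by 2.04, though another probe set of it gave 0.69, and Braf fell by 2.00 and Sos2 by 1.64.

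On the leptin list 4 of 9 genes fell (44.4%, beside 41.1% of all genes) and none was higher. Of the 8 measured in both fractions 3 fell (37.5%, beside 33.2%), shares near those of all genes. By its brightest probe set Stat3, the factor activated by the leptin receptor, was 4.28, 4.24 and 4.28 in IP, below the limit, and 7.68, 7.73 and 7.71 in unbound RNA. That probe set entered the test only through unbound RNA, which fixed its direction, and was at least 6.53-fold lower in IP. The second Stat3 probe set did not show such a fall: it was above the limit in both fractions, at 5.60 in IP and 6.25 in unbound RNA, and was not called (-0.65). Jak2, the receptor's kinase gene, fell by 1.53 (limma adjusted p = 8.46e-06) and Ptpn2, a phosphatase gene that opposes the kinase, by 1.52 (limma adjusted p = 0.000255). Socs3, the feedback inhibitor gene, was below the filter. The calls of Cbl and Jak2 ended under both median centrings and quantile normalisation, those of Sos2 and Ptpn2 under both median centrings, that of Braf under median centring on all probe sets and that of Igf2r after quantile normalisation, each without a change of sign.

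Of the genes beside the members in the RefSeq order, Rhbdd1, next to Irs1, was tested as well as Leprot and was not called. It averaged 4.44 in IP, below the limit, and 5.30 in unbound RNA, so it was at least 1.23-fold lower. The sign of its difference turned with median centring on all probe sets and after quantile normalisation. Col4a5, next to Irs4, was on the array and below the filter.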

How the data were processed

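RNA from 3 IP and 3 unbound samples was amplified from 20 ng by a two-cycle kit, as the labels' protocols say. The authors made the deposited log2 values with GCRMA within each group separately, per the labels and the series' design text. No version of it is named. That the scale is log2 was read from the values.

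As that text recommends, groups were scaled on the biotinylated controls: IP values were shifted by -0.23, the mean gap over 18 control probe sets. The platform annotation gave gene names, and 34945 probe sets with 1 symbol were used (932 had several and 9160 none). A gene was read by its brightest probe set. limma 3.58.1 (R 4.3.3) was fitted by group over the 10581 genes passing the filter, two-sided, with Benjamini-Hochberg adjustment, and the fit was tested on simulated data. Per the labels, replicates within a group are biological. Folds given as "at least" set dim arrays at the limit of 5.

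Each unbound label names the replicate it belongs to. Deviations from group means of same-numbered samples correlated at 0.27, 0.16 and 0.10. Those of different-numbered samples correlated at -0.25 to 0.21. The highest of these, IP replicate 3 with unbound replicate 2, was above the 0.16 and 0.10 of replicates 2 and 3.

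Members and lists were chosen with earlier results of these data known. Besides all members, the text names up to 3 called genes of each pathway list with the largest change, the first 2 of each marker list where a value is needed, the 5 patterns nearest Irs4 and tested neighbours in the RefSeq order (GRCm38.p6). Other genes were named after their values were seen, Map2k2 among them. Of the 9 members, 8 had a RefSeq promoter sequence.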

Additional observations from a re-analysis of the deposited data

How the results depend on the processing

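The 18 alternatives changed the scaling between groups, the filter, the choice of probe set, the use of genes with identical values, the replicate block and, in turn, each replicate. No tested member changed sign under any of them, and Irs4 was called higher under each. Irs2 was not tested with the filter at log2 7 or with identical values left out, nor Insr with the mean of probe sets. Its difference was 4.25 unscaled, 4.35 after quantile normalisation, 4.81 and 5.03 with the median of expressed and of all probe sets, 1.65 with the poly-A controls and 2.34 with the mean of its probe sets. Members called lower numbered 4 with the median of all probe sets, and 5 with that of expressed probe sets and after quantile normalisation. Pathway genes called higher and lower numbered 8 and 16 with that median, 6 and 17 with the median of expressed probe sets, 6 and 22 after quantile normalisation, 0 and 53 with the poly-A controls and 2 and 61 with every probe set by itself, and 22 were lower with the mean of probe sets, where 39 were tested. Leaving out 1 replicate left Irs4 at 3.94 to 4.05, 33 to 36 pathway genes lower and 1 higher. With the replicate block, Irs4 was 4.01 ± 0.12 (SE), with 35 pathway genes lower and 1 higher, 7 members lower and 1 higher, so the pairing changed none of these counts. Named genes not called that changed sign were Snap25 (0.45 with the median of all and 0.23 with that of expressed probe sets), Rhbdd1 (0.17 with the median of all probe sets, 0.70 after quantile normalisation), Leprot (0.10 with the median of all probe sets), Grb2 (0.18 unscaled, 0.96 and 0.74 with the median of all and of expressed probe sets, 0.44 after quantile normalisation, -0.18 to 0.059 with 1 replicate left out, the highest without unbound replicate 2) and Akt1 (0.14, 0.93, 0.71 and 0.26 under the same scalings). With the poly-A controls Syt1 (-1.38), Sh2b1 (-1.96), Grb10 (-1.93), Rheb (-1.85) and Gsk3a (-2.07) turned negative. With the same controls, 3 named genes called higher turned: Map2k2 to -0.84, Tubb3 to -0.89 and Dynlrb2 to -1.30. With no filter Lepr was called lower too, from values below the limit in both groups, which made 8 members lower. Genes below the limit in 1 fraction give only bounds, which applies to Irs2 and Igf1 among the members.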
